A study of Arabidopsis thaliana with 10 samples.

Results

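A set of 9 genes known as paternally expressed imprinted genes was followed by name through endosperm RNA sequencing of Arabidopsis thaliana. The members were HDG3 (AT2G32370), SUVH7 (AT1G17770), PEG1 (AT3G62230), PEG2 (AT1G49290), ADM (AT4G11940), PKR2 (AT4G31900), VIM5 (AT1G57800), ABCB10 (AT1G10680) and MYB3R2 (AT4G00540). All 9 were found among the 37336 genes of the allele tables and the 37328 genes of the expression tables. They were chosen by name, with earlier results of these data known. In both groups of the series a Ler mother was crossed with a 4N (tetraploid) Col father, which was wild type in one group, named lethal paternal excess, and mutant in nrpd1 in the other, named viable paternal excess. NRPD1 is the largest subunit of RNA polymerase IV, which acts in RNA-directed DNA methylation, and the mutation came through the father alone. Each group held 3 replicates of endosperm dissected by hand from seeds of several plants. By the sample labels these were collected at 7 days after pollination, with 1 part of lethal replicate 1 at 8 days, whereas the design text gives an age of 6 days. Another group, called balanced, came from 5 replicates of other series and was used only as the authors' pooled values, so it differed from the other groups in series and in parental dosage at once.

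Endosperm feeds the embryo and normally carries 2 maternal genome copies and 1 paternal copy. With a 4N father it carries as many paternal as maternal copies, and such seeds often abort. At a paternally expressed imprinted gene the paternal allele is the active one, and the maternal allele is commonly held silent by the Polycomb repressive complex 2 of the endosperm, which marks chromatin with histone H3 lysine 27 methylation. Several genes of this class act in the block to seed growth after paternal excess: loss of ADM, SUVH7, PEG2 or PKR2 is known to let part of such seeds survive. Because Ler was the mother of every library of the series, a paternal allele and a Col allele cannot be told apart in these libraries.

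Between 7356862 and 7983669 reads per lethal library, and between 5692640 and 6683136 per viable library, lay in genes and could be assigned to an allele, against 11895484 in the balanced pool. Paternal reads made up 51.1% to 53.0% of them in the paternal-excess libraries and 35.7% in the pool. The libraries of replicate 3 stood apart in both groups, with 15829 (lethal) and 13465 (viable) genes holding a read against 16560 to 17246 in the other 4 libraries. Values without them are given where they change a call. Of the 8 endosperm markers, 7 or 8 had a read in each library, with summed levels of 692 to 1844 CPM in lethal and 1440 to 2144 CPM in viable libraries (allele reads scaled by library size with TMM factors). Of the 14 seed coat markers, 9 to 11 had a read in lethal libraries, at 708 to 1059 CPM in sum, and 8 to 10 in viable libraries, at 514 to 718 CPM. No more than 1.48% of the seed coat reads were paternal in any library. Of the 13 embryo markers, 3 to 11 had a read in lethal and 5 to 10 in viable libraries, at 47.2 to 204 and 69.3 to 92.7 CPM in sum. In the authors' deposited table the FPKM (fragments scaled by gene length and library size) of NRPD1 was 6.96 in lethal and 5.71 in viable endosperm. Fewer cells of a type and less RNA per cell cannot be told apart in bulk tissue.

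Most of the 9 genes stood higher in paternal excess than in the balanced group. By the authors' deposited table the genes HDG3, SUVH7, VIM5, ADM, PKR2, ABCB10 and MYB3R2 were higher in lethal endosperm, 7 of 9 beside 17.5% of the 23552 genes tested (the authors' q under 0.05). The same 7 of 9 were called higher in viable endosperm, beside 14.2% of 23073 genes in the authors' deposited table. PEG1 was the 1 member called lower in both, beside 16.6% and 12.9% of all genes in the authors' deposited table. PEG2 had no call, at 0.843 FPKM in balanced, 1.60 in lethal (q = 0.323) and 1.17 in viable endosperm (q = 0.667) in the authors' deposited table. On the log2(FPKM + 1) scale of the authors' deposited table the median change of the 9 was 3.11 in lethal endosperm, against 0.06 over all genes tested, and 2.91 in viable endosperm, against 0.03. Both comparisons share the balanced libraries.

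**Figure D1:**
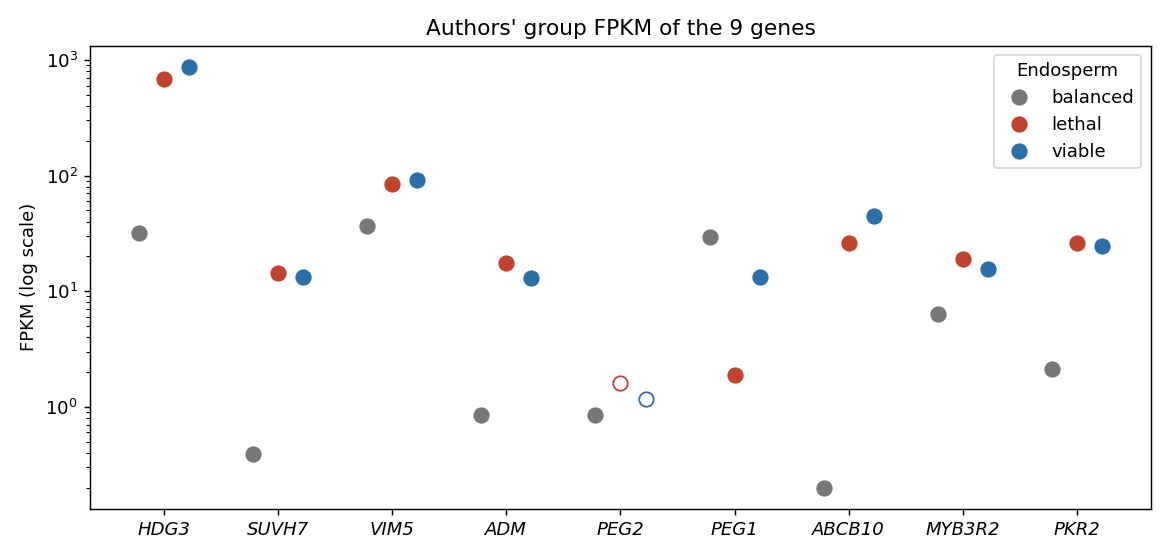
Level of each of the 9 genes in balanced (grey), lethal (red) and viable (blue) endosperm, as the authors' single FPKM value per group, on a log axis. Open symbols mark values that the authors' deposited table did not call different from balanced. PEG1 alone lies lower in both paternal-excess groups than in balanced endosperm.

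The paternal allele supplied nearly all reads of SUVH7, VIM5 and ADM and most reads of HDG3, in both groups. A test of the paternal share against equal reads of both alleles (edgeR quasi-likelihood test, Benjamini-Hochberg adjustment over 10183 genes) could be made for 7 members. The other 2, PEG2 and PKR2, had fewer than 10 allele reads in at least 1 library. Paternal reads were called higher for 4 of the 7 in lethal endosperm, beside 13.1% of all genes, and for the same 4 in viable endosperm, beside 12.7%. MYB3R2 was called lower in both groups, beside 10.1% and 8.89% of all genes, so that its reads were mainly maternal. PEG1 and ABCB10 were not called in either group. The reads of MYB3R2 go against the name of the set, and the part of maternal tissue in them was not tested. By this test neither PEG1 nor ABCB10 had a call that would bear the name. Over all 10183 genes the median paternal percentage was 50.4% in lethal and 50.7% in viable endosperm, and percentiles 5 and 95 lay at 17.7% and 77.4% in lethal and at 19.9% and 77.9% in viable endosperm.

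**Figure D2:**
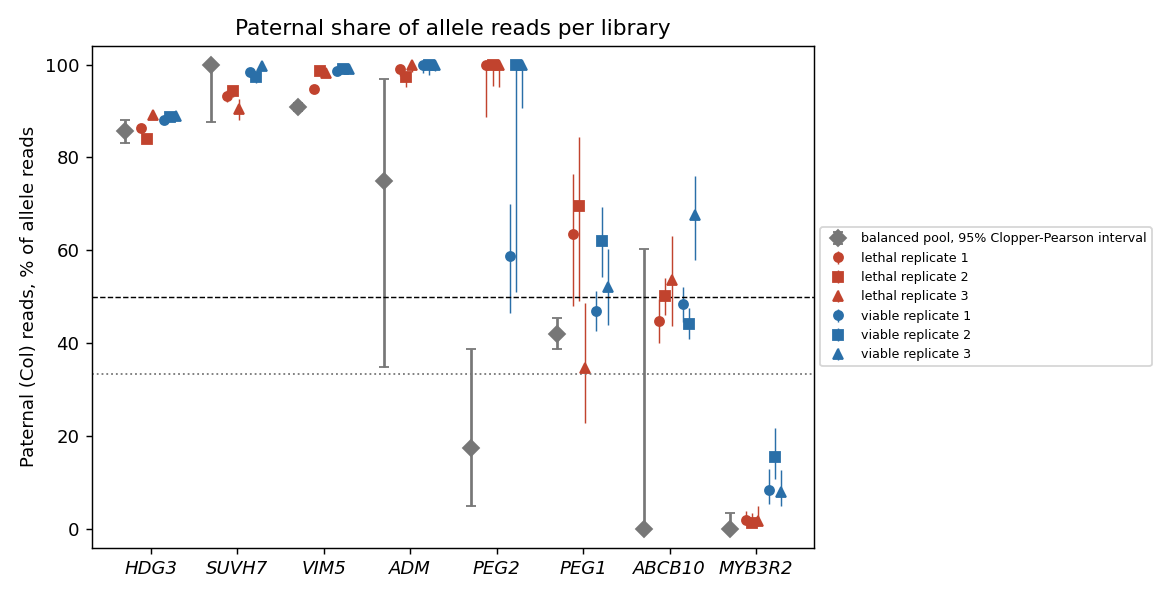
Paternal (Col) reads as a percentage of allele reads in each library (red lethal, blue viable, symbols by replicate number) with 95% Wilson intervals, and in the balanced pool (grey) with 95% Clopper-Pearson intervals. The dashed line marks equal reads of both alleles and the dotted line 1 paternal copy in 3. HDG3, SUVH7, VIM5 and ADM lie at 83.9% or higher in every paternal-excess library, and MYB3R2 lies at 15.6% or lower.

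SUVH7 encodes a protein of the SU(VAR)3-9 homolog family of histone methyltransferases (TAIR10 chromosome 1, 6120741 to 6122822). The authors' deposited table gave it 0.390 FPKM in balanced, 14.5 in lethal (37.1-fold, q = 0.00035) and 13.3 FPKM in viable endosperm (34.2-fold, q = 0.00048). Its paternal reads numbered 1356, 1449 and 609 in lethal replicates 1, 2 and 3, and 1078, 1097 and 461 in viable replicates 1, 2 and 3. Its maternal reads numbered 97, 88 and 64 in the lethal and 18, 31 and 1 in the viable replicates. Replicate 3 was the lowest of its group for each allele. The paternal level overlapped between the groups, while every viable library had less maternal SUVH7 RNA than every lethal library. For how many of all genes this held was not counted.

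The paternal share of SUVH7 was accordingly 93.3%, 94.3% and 90.5% in lethal replicates 1, 2 and 3 (92.7% ± 1.97, SD, n = 3) and 98.4%, 97.3% and 99.8% in viable replicates (98.5% ± 1.27, SD, n = 3). Both groups were called above equal reads (log2 odds 3.71, SE 0.28, adjusted p = 1.24e-05, and 5.81, SE 0.34, adjusted p = 2.85e-06). The viable share lay above the lethal share in all libraries, by 2.10 in log2 odds (SE 0.45), but did not pass the test over all genes (edgeR adjusted p = 0.300). Without both libraries of replicate 3, an alternative chosen after seeing the data, the difference was 1.55 and was called (edgeR adjusted p = 0.0365). Without viable replicate 2 it was 2.72 (edgeR adjusted p = 0.339), and with the replicate block 2.09 (edgeR adjusted p = 0.580). Maternal SUVH7 stood at 10.9 CPM ± 1.08 over the lethal and 2.49 CPM ± 2.14 over the viable libraries (SD, n = 3 per group), with no call (log2 difference -2.11, SE 0.76, edgeR adjusted p = 0.702). The summed level of the seed coat markers, whose reads were nearly all maternal, was 514 to 718 CPM in viable and 708 to 1059 CPM in lethal libraries. These ranges overlapped with TMM scaling and did not overlap without it (573 to 700 against 742 to 1104 CPM), and the part of maternal tissue in the SUVH7 difference was not tested. In the balanced pool 0 of 28 SUVH7 reads were maternal, which allows a maternal share of up to 10.7%.

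VIM5 encodes a RING-type ubiquitin ligase with an SRA domain, of a family that binds methylated DNA and helps to maintain CG methylation (chromosome 1, 21408623 to 21412283). The family has closely similar members, so reads may be split between them, and its values are uncertain to that extent. The authors' deposited table put VIM5 at 36.3 FPKM in balanced, 85.0 in lethal (2.34-fold, q = 0.0123) and 90.7 FPKM in viable endosperm (2.50-fold, q = 0.0108). The paternal allele held 5680 of 5993 reads in lethal replicate 1, 9616 of 9753 in replicate 2 and 4893 of 4983 in replicate 3. In the viable replicates it held 5837 of 5916, 9306 of 9406 and 2996 of 3025 reads. Lethal replicate 1, the library with a part collected at 8 days, had the lowest paternal share of the 6.

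The share of VIM5 was 97.2% ± 2.10 over the lethal and 98.9% ± 0.194 over the viable libraries (SD, n = 3 per group), called above equal reads in both (edgeR adjusted p = 4.15e-06 and 2.21e-06). The viable libraries lay between 98.7% and 99.0% and the lethal libraries between 94.8% and 98.6%, without overlap, and the difference did not pass the test (log2 odds 1.14, SE 0.46, edgeR adjusted p = 0.940). Without lethal replicate 1 the difference in log2 odds was 0.49 (edgeR adjusted p = 1). In the balanced pool 90.9% of 5206 VIM5 reads were paternal (95% Clopper-Pearson interval 90.1 to 91.7%). In CPM without TMM scaling, paternal VIM5 stood at 398 in the pool, 893 ± 360 over the lethal and 983 ± 515 over the viable libraries (SD, n = 3 per group). Maternal VIM5 stood at 39.8 in the pool, 23.3 ± 14.1 in lethal and 11.4 ± 6.16 in viable libraries. The single balanced replicates were not used, so the pool entered as 1 value without spread and these differences between pool and libraries carry no test.

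PKR2 encodes a chromatin remodelling factor related to PICKLE (chromosome 4, 15431350 to 15438678). The authors' deposited table put it at 2.13 FPKM in balanced, 26.0 in lethal (12.2-fold, q = 0.00035) and 24.6 FPKM in viable endosperm (11.5-fold, q = 0.00048). Few of its reads could be assigned to an allele: 2 paternal and 0 maternal reads in each lethal library, and none in the viable libraries or the pool. With 6 paternal of 6 reads over the lethal libraries, a maternal share of up to 50% was allowed. The parental origin of PKR2 RNA could thus not be measured from these reads. At 18.8 FPKM in lethal endosperm, MYB3R2 had 835 allele reads over the lethal libraries. Why PKR2 had so few was not tested.

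HDG3 encodes a homeodomain leucine zipper transcription factor of class IV, which acts on the timing of endosperm cellularisation (chromosome 2, 13740878 to 13746286). It had the highest FPKM of the 9 genes in both paternal-excess groups. The authors' deposited table gave it 32.1 FPKM in balanced, 679 in lethal (21.1-fold, q = 0.00035) and 870 FPKM in viable endosperm (27.1-fold, q = 0.000885). Paternal reads numbered 11922, 22265 and 8374 in lethal and 14170, 26189 and 6480 in viable replicates 1, 2 and 3. Maternal reads numbered 1898, 4268 and 1017 in lethal and 1916, 3353 and 809 in viable replicates. In both groups replicate 2 was highest and replicate 3 lowest for either allele, and the groups overlapped.

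The paternal share of HDG3 was 86.3%, 83.9% and 89.2% in lethal replicates 1, 2 and 3 (86.5% ± 2.63, SD, n = 3) and 88.1%, 88.7% and 88.9% in viable replicates (88.5% ± 0.416, SD, n = 3). It was called above equal reads in both groups (edgeR adjusted p = 3.16e-07 and 2.01e-07) and did not differ by the test between them (log2 odds 0.26, SE 0.15, edgeR adjusted p = 0.940). In the balanced pool 85.7% of 797 reads were paternal (95% Clopper-Pearson interval 83.1 to 88.1%), a share inside the range of the lethal libraries. Both alleles stood higher in paternal excess than in the pool by similar factors. In CPM without TMM scaling the maternal allele went from 9.58 in the pool to 318 ± 232 in lethal libraries (SD, n = 3, 33.2-fold) and 330 ± 206 in viable libraries (34.4-fold). The paternal allele went from 57.4 to 1883 ± 1007 (32.8-fold) and 2538 ± 1593 (44.2-fold). In total HDG3 reads the viable and lethal libraries differed by a log2 value of 0.31 (SE 0.53, edgeR adjusted p = 0.982).

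MYB3R2 encodes a MYB transcription factor with 3 repeats, of a family that regulates cell cycle genes (chromosome 4, 234597 to 237582). The authors' deposited table put it at 6.37 FPKM in balanced, 18.8 in lethal (2.96-fold, q = 0.000936) and 15.7 FPKM in viable endosperm (2.46-fold, q = 0.00854). In both paternal-excess groups it was read mainly from the maternal allele, as the only member called so. Maternal reads numbered 404, 246 and 171 in lethal and 194, 141 and 183 in viable replicates 1, 2 and 3. Paternal reads numbered 8, 3 and 3 in lethal and 18, 26 and 16 in viable replicates. The paternal counts did not overlap between the groups, and the maternal counts did. For how many of all genes one allele lacked overlap was not counted. In the balanced pool 0 of 103 reads were paternal, which allows a paternal share of up to 2.91%.

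The paternal share of MYB3R2 was 1.94%, 1.20% and 1.72% in lethal replicates 1, 2 and 3 (1.62% ± 0.379, SD, n = 3) and 8.49%, 15.6% and 8.04% in viable replicates (10.7% ± 4.22, SD, n = 3). Both groups were called below equal reads (log2 odds -5.85, SE 0.34, adjusted p = 2.44e-06, and -3.10, SE 0.28, adjusted p = 3.96e-05). The viable share was higher in all libraries, by 2.75 in log2 odds (SE 0.46), without passing the test over all genes (edgeR adjusted p = 0.115). The difference was called with no read minimum (edgeR adjusted p = 0.00882) and without viable replicate 3 (2.94, edgeR adjusted p = 0.0361). It was also called without both libraries of replicate 3 (2.95, edgeR adjusted p = 0.0365), an alternative chosen after seeing the data. It was not called with the replicate block, centred libraries or at least 50 reads (edgeR adjusted p = 0.289, 0.130 and 0.0732), or by limma (adjusted p = 0.865). Leaving out any other single library gave edgeR adjusted p from 0.307 to 0.406. Paternal MYB3R2 stood at 0.601 CPM ± 0.314 over the lethal and 3.15 CPM ± 0.480 over the viable libraries (SD, n = 3 per group), close to the level of 3 reads in lethal libraries and with no call (log2 difference 2.34, SE 0.82, edgeR adjusted p = 0.587). Maternal MYB3R2 stood at 35.4 CPM ± 11.8 and 27.9 CPM ± 6.85 (SD, n = 3 each; edgeR adjusted p = 1). The seed coat markers had a paternal share of 0.408% to 1.48% in lethal and 0.298% to 1.28% in viable libraries. This lay below the MYB3R2 share in every viable library, while in lethal libraries the ranges overlapped, with MYB3R2 at 1.20% to 1.94%. The part of maternal tissue in the MYB3R2 reads was not tested.

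ADM encodes a protein with a J domain, the mark of co-chaperones (chromosome 4, 7168173 to 7168967). The authors' deposited table had it rise from 0.855 FPKM in balanced to 17.4 in lethal (20.3-fold, q = 0.00035) and 13.0 FPKM in viable endosperm (15.1-fold, q = 0.00048). Paternal reads numbered 395, 385 and 225 in lethal and 204, 164 and 294 in viable replicates 1, 2 and 3. Maternal reads were 4, 11 and 0 in lethal replicates, and 0 in each viable replicate. ADM was thus read almost wholly from the paternal allele, and the few maternal reads lay in lethal replicates 1 and 2.

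The paternal share of ADM was 98.7% ± 1.41 in lethal libraries (SD, n = 3). The absence of maternal reads in viable replicates 1, 2 and 3 allowed a maternal share of up to 1.47%, 1.83% and 1.02%. Paternal reads were called above equal reads in both groups (edgeR adjusted p = 0.000109 and 9.53e-05), and the share did not differ by the test between them (edgeR adjusted p = 0.940). In CPM the total level was 44.4 ± 9.19 over the lethal and 36.1 ± 14.8 over the viable libraries (SD, n = 3 per group), with a log2 difference of -0.30 (SE 0.39, edgeR adjusted p = 0.972). The balanced pool held 8 ADM reads, 6 of them paternal, with a 95% Clopper-Pearson interval of 34.9 to 96.8%.

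PEG2 (chromosome 1, 18232407 to 18233680), whose transcript is known for binding a small RNA, was the member with the lowest FPKM in both paternal-excess groups. All of its allele reads were paternal in lethal endosperm, with 30, 79 and 77 reads in replicates 1, 2 and 3. A maternal share of up to 10%, 3.80% and 3.90% was allowed in these libraries. Viable replicate 1 held 26 maternal and 37 paternal reads, while viable replicates 2 and 3 held 0 maternal and 4 and 37 paternal reads. The maternal reads of PEG2 in the series thus came from 1 library. In the balanced pool 4 of 23 reads were paternal (17.4%, 95% Clopper-Pearson interval 4.95 to 38.8%), so there the maternal allele gave most reads. The interval includes the 33.3% of 1 paternal copy in 3, so these reads show no maternal bias beyond dosage. The pool and the lethal libraries differ in series as well as in dosage.

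The total level of PEG2 was 8.50 CPM ± 4.29 over the lethal and 5.76 CPM ± 4.82 over the viable libraries (SD, n = 3 per group), with no call (log2 difference -0.56, SE 0.85, edgeR adjusted p = 0.974, and -1.27 without viable replicate 1). With 4 reads in viable replicate 2, its share was left out of the test. With no read minimum, lethal PEG2 was called above equal reads (edgeR adjusted p = 4.67e-05), as it was without viable replicate 2 (edgeR adjusted p = 0.0124). Viable PEG2 was not called under either setting (edgeR adjusted p = 0.10 and 0.321).

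PEG1, listed in the RefSeq annotation as DAF1, encodes an F-box protein, of the kind that selects proteins for ubiquitination (chromosome 3, 23031531 to 23033146). Of the 8 members tested between the paternal-excess groups it had the largest difference in total reads. The authors' deposited table had it fall from 29.4 FPKM in balanced to 1.88 in lethal (15.6-fold lower, q = 0.00035) and 13.2 FPKM in viable endosperm (2.22-fold lower, q = 0.0175). The direct comparison in the authors' deposited table put it at 2.04 FPKM in lethal and 14.4 in viable endosperm (7.08-fold higher, q = 0.00417). It was the 1 member of 9 called higher in viable endosperm, beside 1.74% of 24437 genes, and 0 of 9 were called lower, beside 0.769%, in the authors' deposited table.

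Allele reads of PEG1 were 41, 23 and 49 in lethal and 515, 153 and 140 in viable replicates 1, 2 and 3. In CPM these were 4.93, 2.98 and 7.41 in lethal libraries (5.11 ± 2.22, SD, n = 3) and 82.6, 21.8 and 25.0 in viable libraries (43.1 ± 34.2, SD, n = 3). The groups did not overlap for the total or for either allele, and viable replicate 1 was the highest. The share of all genes without such overlap was not counted. The log2 difference was 3.08 (SE 0.63) with an edgeR adjusted p of 0.193, so it did not pass the test on libraries. Without viable replicate 1 it was 2.19, and 2.00 for maternal and 2.34 for paternal reads alone, and without both libraries of replicate 3 it was 3.74. With the replicate number as a block it was 2.90 (SE 0.47) and passed (edgeR adjusted p = 0.0431), as it did for paternal reads alone (adjusted p = 0.0147 with the block and 0.130 without). DESeq2 gave the total an adjusted p of 0.000255, and leaving out any 1 library ended at adjusted p from 0.150 to 0.612.

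Both alleles of PEG1 shared in the difference. Maternal reads were 15, 7 and 32 in lethal and 273, 58 and 67 in viable replicates, a log2 difference of 3.09 (SE 0.79, edgeR adjusted p = 0.366). Paternal reads were 26, 16 and 17 in lethal and 242, 95 and 73 in viable replicates, a log2 difference of 3.06 (SE 0.57). The paternal share was 55.9% ± 18.6 over the lethal and 53.7% ± 7.68 over the viable libraries (SD, n = 3 per group), and it was called neither against equal reads (log2 odds 0.24, SE 0.43, and 0.20, SE 0.34, edgeR adjusted p = 0.793 and 0.723) nor between the groups (log2 odds -0.04, SE 0.52, adjusted p = 1). The pool gave 42.1% of 839 reads (95% Clopper-Pearson interval 38.7 to 45.5%), above the 33.3% of 1 paternal copy in 3 and below equal reads.

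**Figure D3:**
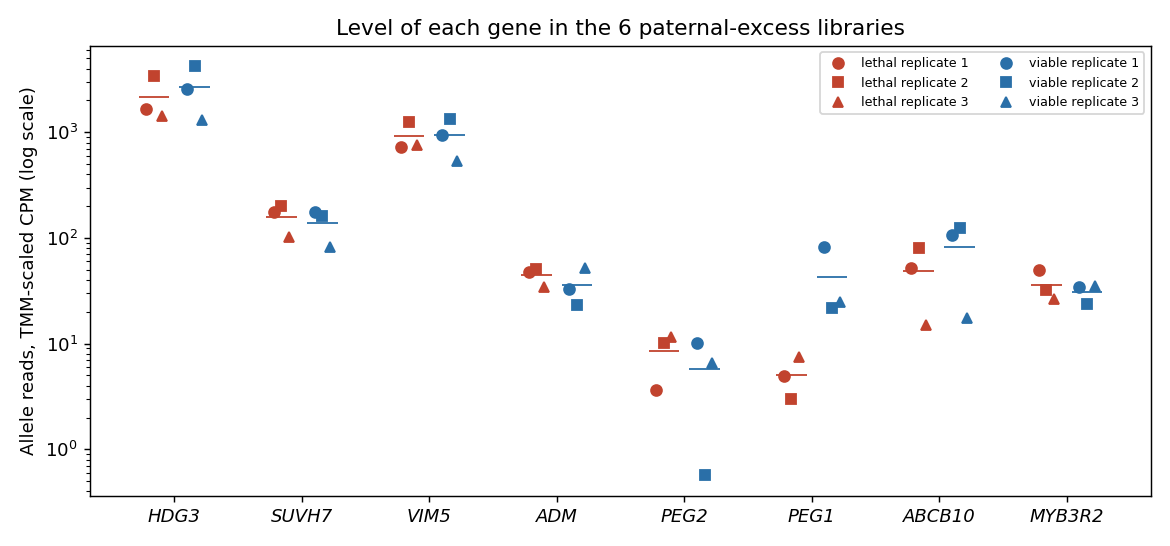
Allele reads (maternal plus paternal) in TMM-scaled CPM on a log axis, for the 8 members with allele reads in both groups. Red marks lethal and blue viable libraries, symbols show the replicate number and bars the group means. Among these 8 members PEG1 is the one whose groups do not overlap, at 2.98 to 7.41 CPM in lethal and 21.8 to 82.6 CPM in viable libraries. The share of all genes without overlap was not counted.

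ABCB10 encodes a transporter of the ABC family and lies beside ACLA-1, which encodes a subunit of ATP-citrate lyase. The authors' deposited table gives both genes the same locus (chromosome 1, 3535288 to 3543925), and no source used here says whether counting used strand, so values of ABCB10 are uncertain. The authors' deposited table put ABCB10 at 0.200 FPKM in balanced, 26.2 in lethal (131-fold, q = 0.00308) and 45.0 FPKM in viable endosperm (226-fold, q = 0.00315). ACLA-1 stood at 238, 211 and 204 FPKM in the authors' deposited table, with no call. The rise of ABCB10 was thus the largest fold of the 9 members in that table, from the lowest balanced level.

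Maternal reads of ABCB10 numbered 237, 312 and 46 in lethal and 343, 488 and 32 in viable replicates 1, 2 and 3. Paternal reads numbered 192, 313 and 53 in lethal and 321, 387 and 67 in viable replicates. The alleles were read about equally, and replicate 3 was lowest in both groups. The paternal share was 49.5% ± 4.42 over the lethal and 53.4% ± 12.5 over the viable libraries (SD, n = 3 per group), not called against equal reads (log2 odds -0.06, SE 0.25, and 0.09, SE 0.24, edgeR adjusted p = 0.924 and 0.826). Viable replicate 3, at 67.7% (95% Wilson interval 58.0 to 76.1%), lay above the other viable libraries at 48.3% and 44.2%. The balanced pool held 4 reads, all maternal. The total level was 49.2 CPM ± 33.1 over the lethal and 82.9 CPM ± 57.2 over the viable libraries (SD, n = 3 per group), with a log2 difference of 0.75 (SE 0.74, edgeR adjusted p = 0.948).

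**Figure D4:**
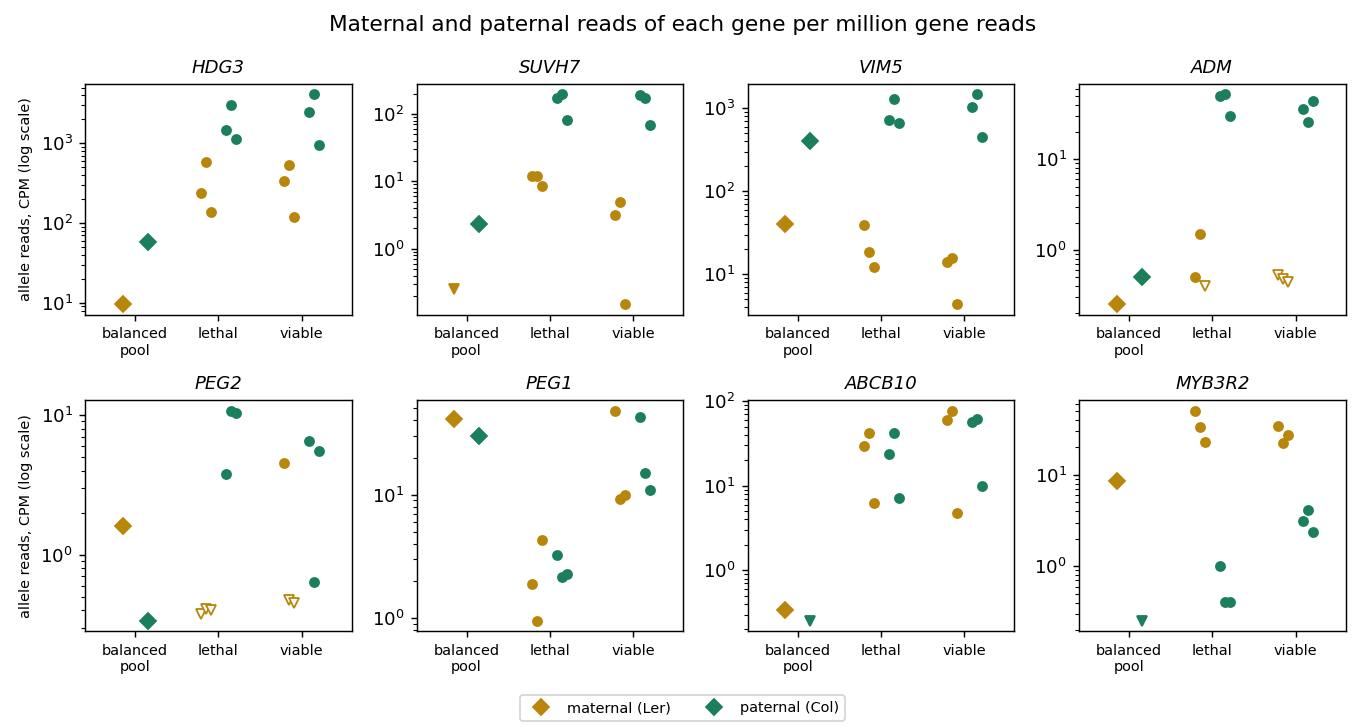
Maternal (ochre) and paternal (green) reads of 8 members in CPM without TMM scaling, on log axes that differ between panels. Diamonds mark the balanced pool and circles single libraries, and triangles pointing down mark a count of 0 drawn at the level of 3 reads. Both alleles of HDG3 lie far above the pool in both groups, and the paternal allele of MYB3R2 lies higher in viable than in lethal libraries.

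Viable and lethal endosperm were compared to ask what the paternal nrpd1 mutation changes in these genes. In total, maternal and paternal reads 0 of the 8 members tested were called, and 0% of 12674 genes in each (edgeR quasi-likelihood test). At an unadjusted p under 0.05 there were 865 genes with 1 member in total reads, 714 with 4 members in maternal reads and 835 with 2 members in paternal reads. The 4 in maternal reads pointed both ways: SUVH7 (log2 -2.11) and ADM (-5.19) lower in viable endosperm, PEG1 (3.09) and PEG2 (6.28) higher. All 26 maternal PEG2 reads lay in viable replicate 1, and maternal ADM reads numbered 15 in lethal and 0 in viable libraries. DESeq2 called 199, 134 and 148 genes, with PEG1 as the 1 member in each. With the replicate number as a block edgeR called 117, 109 and 139 genes, with PEG1 as the 1 member in total and in paternal reads and no member in maternal reads. For the paternal share 0 of 7 members were called, beside 0.0786% of 10183 genes. At an unadjusted p under 0.05 in this edgeR test there were 471 genes, with 4 members, SUVH7, MYB3R2, VIM5 and ADM. SUVH7, VIM5 and MYB3R2 were the members whose paternal share did not overlap between the groups, higher in each viable library. For VIM5 the gap was only from 98.60% in lethal replicate 2 to 98.66% in viable replicate 1. How many of all genes lacked overlap, in share or in level, was not counted, so no lack of overlap named here carries weight as a result about the set.

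Other imprinted genes were counted in lists. Among 17 other genes of the paternally expressed class, all tested in lethal endosperm, 12 were higher and 1 was lower in the authors' deposited table. Of all genes tested there, 17.5% were higher and 16.6% lower. In viable endosperm 16 were tested, of which 11 were higher and 0 lower in the authors' deposited table, beside 14.2% and 12.9% of all genes. Their median change was 3.16 and 3.01 on the log2(FPKM + 1) scale of the authors' deposited table. Paternal reads were called above equal reads for 12 of 13 testable genes in lethal and 11 of 13 in viable endosperm, and below for 1 in each. Over all genes 13.1% (lethal) and 12.7% (viable) were called above, and 10.1% and 8.89% below. Of 8 maternally expressed imprinted genes, paternal reads were called below equal reads for 4 of 5 testable genes and above for 0 in each group. The median log2(FPKM + 1) change of this maternal list was 1.60 in lethal and 1.66 in viable endosperm, against 0.06 and 0.03 over all genes. Calls in the authors' deposited table were 3 higher of 8 tested (lethal) and 2 higher of 7 (viable), beside 17.5% and 14.2% of all genes. In each, 0 were lower. A median above that of all genes was thus not limited to the paternally expressed class. No gene of either list was called between viable and lethal endosperm in total reads or in share (edgeR quasi-likelihood test). The direct comparison in the authors' deposited table called 1 of the 17 other paternally expressed genes lower in viable endosperm and 0 higher. It called 0 of the 8 maternally expressed genes. Over all genes tested there, 0.769% were called lower and 1.74% higher in viable endosperm. Among 5 subunits of Polycomb repressive complex 2 there was 1 lower call in lethal endosperm by the authors' deposited table, beside 16.6% of all genes. None was called in viable endosperm, where 12.9% of all genes were lower and 14.2% higher. With only 5 genes, these counts carry no result about the complex.

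Genes were sought whose paternal percentage in the 6 libraries and the pool lay near the median of the members, among 6246 genes with at least 50 allele reads in each. This median joins members of high, about equal and low paternal share, so it is the profile of no single member. In the pool it was 58.5%, against 85.7% for HDG3, 90.9% for VIM5 and 42.1% for PEG1. The nearest 5 to the median of the members were AT3G45090, CDR1 (AT5G33340), ELF4 (AT2G40080), AT3G26922 and CYP89A5 (AT1G64950), at mean absolute differences of 3.91 to 4.82 percentage points over these 7 values. AT3G45090, the nearest, had 91.5% to 93.5% paternal reads in lethal libraries, 91.5% to 95.9% in viable libraries and 59.7% in the pool.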

How the data were processed

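Per the labels' protocols, polyA RNA of hand-dissected endosperm was amplified with a low-input kit. Replicates 1 and 2 were sequenced in 2 parts each, which the authors deposited as 1 column. Per the submitters' processing notes the tools were Trim Galore, FastQC, TopHat, Bowtie and Cuffdiff on TAIR10, with no version and no rule of allele assignment in the sources used here. For each replicate the authors deposited counts of Ler and Col reads per gene, and for the balanced group pooled counts and the percent of Col reads. Their 3 expression tables hold FPKM per group, with fold changes recomputed here, and p-values and q-values that the authors deposited. The FPKM tables were scaled separately. The 10 columns of single balanced replicates were not used. No reference sequence was used, and a planned search for promoter motifs was not made.

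Counts were fitted with edgeR 4.0.16 (R 4.3.3; TMM, filterByExpr for levels, at least 10 allele reads per library for shares, Benjamini-Hochberg adjustment over all genes, two-sided, threshold 0.05). The share test sets Ler against Col counts with a term per library. Alternatives used limma 3.58.1, DESeq2 1.42.0, a replicate block, other read minimums, centred libraries, a stricter q and each library left out. Log2 FPKM used a pseudocount of 1. A count of 0 was taken to allow up to 3 reads, and intervals cover counting error only. The count fits were tested on simulated data.

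All 9 members are named. Other imprinted genes would be named if called between viable and lethal endosperm in the edgeR tests, and the 5 genes nearest to the members' median paternal percentage are named. Members and lists were chosen with earlier results of these data known. Nothing in the labels says that replicates are separate cultures of plants, so p-values reflect only how far these samples scatter, which may be technical. Deviations of log2 CPM from the group mean correlated at 0.114, 0.475 and 0.432 between equal replicate numbers over 12674 genes, above the limit of 0.1. Between unequal numbers the correlations ran from -0.446 to 0.155, the highest for lethal replicate 2 with viable replicate 1. Equal numbers may thus pair the samples, least clearly for number 1. The labels do not say that they share a batch, so the main tests used no block and the replicate block was an alternative. For the paternal percentage the correlations between equal numbers were 0.0279, 0.0215 and 0.0349.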

Additional observations from a re-analysis of the deposited data

How the results depend on the processing

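The 5 calls of paternal share against equal reads in each group (HDG3, SUVH7, VIM5, ADM and MYB3R2) held under all alternatives run. Between viable and lethal endosperm, 1 member (PEG1) was called in total reads with the replicate block, without the count filter and by DESeq2, in maternal reads by the last 2, and in paternal reads by all 3. Over all genes these calls went from 0 to 117, 81 and 199 in total, 109, 95 and 134 in maternal and 139, 153 and 148 in paternal reads, and leaving out 1 library gave 0 to 1 in maternal reads. For the paternal share, 2 members (SUVH7 and MYB3R2) were called with no read minimum and without both libraries of replicate 3, an alternative chosen after seeing the data, and 0 to 1 with 1 library left out. Over all genes the 8 calls became 0 with the replicate block or limma, 49 with no read minimum, 47 without replicate 3 and 0 to 26 with 1 library left out. Calls against equal reads in lethal endosperm ran from 1510 to 3340 genes with 1 library left out. Under q below 0.01 the authors' direct comparison had 334 calls. The replicate block changed no other call of a member. The causes were not tested.

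Uncalled values near 0 changed sign. With the replicate block VIM5 total reads gave -0.000157 and HDG3 maternal reads 0.0406, and without replicate 3 HDG3 maternal reads gave 0.0597 and the ABCB10 share -0.0762 (log2). The viable ABCB10 share against equal reads was -0.0338 with centred libraries and -0.218 without replicate 3. With 1 library left out, total reads ran from -0.17 to 0.81 for HDG3, -0.42 to 0.0896 for SUVH7, -0.30 to 0.35 for VIM5 and -0.40 to 0.12 for MYB3R2. Maternal HDG3 ran from -0.47 to 0.70, and paternal reads from -0.12 to 0.82 for HDG3, -0.36 to 0.16 for SUVH7 and -0.28 to 0.39 for VIM5. The share difference ran from -0.75 to 0.29 for PEG1 and -0.15 to 0.43 for ABCB10. Against equal reads PEG1 ran from -0.0866 to 0.95 in lethal and -0.0348 to 0.42 in viable, and ABCB10 from -0.15 to 0.0857 and -0.22 to 0.38. Few allele reads limit PKR2, PEG2 and, in the pool, ADM and ABCB10.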
